A study of Mus musculus with 12 samples.

Results

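Among the autosomal CpGs of PKD1-Het cells, 24704 were methylated on 40 to 60% of their reads in both PBS Rep1 and PBS Rep3, out of 942874 that had 10 or more reads in both libraries (2.62%). These intermediate CpGs were chosen on the levels of those 2 libraries, so their level there is a description. PBS Rep2 took no part in the choice and served as the check library. PKD1-Het cells are mouse proximal renal tubule epithelial cells from Pkd1 flox/-:TSLargeT animals, which carry 1 disrupted and 1 floxed copy of Pkd1 and a temperature-sensitive large T antigen, and every group here shares that genotype. Cells at 37°C received PBS, 50 µM Aza (5-aza-2'-deoxycytidine), or Aza together with 300 µM metformin and 10 µM tolvaptan, either as free drugs (F-MTAza) or loaded in micelles (NP-MTAza), in each case for 24 h. DNA methylation (DNAme) was read by reduced representation bisulfite sequencing, which cuts DNA at CCGG and sequences short fragments, so CpG-rich DNA is over-represented. Aza Rep1 and Aza Rep2 were left out, because their mean level was 41.9% and 44.6% at the intermediate CpGs, 41.1% and 44.4% at CpGs that were at 90% or more in PBS, and 40.8% and 44.4% at CpGs at 10% or less, so these libraries did not separate the classes. The treated libraries followed were therefore 3 of F-MTAza, 3 of NP-MTAza and Aza Rep3. The labels do not say that replicates came from separate cultures, and the tests measure the spread between libraries only.

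In mammals DNAme sits mostly on CpGs, and most CpGs of a differentiated cell are close to fully methylated or close to unmethylated. A level near the middle can arise when 1 parental allele carries the mark, as at imprinted genes, when cells of a culture differ from each other, or when reads of near-identical repeated copies are counted at 1 position. Bulk reads cannot tell these apart, and none of them was tested here. DNMT1 copies methylation to the new strand after replication, and Aza, once built into DNA, traps DNMTs, so that methylation is diluted as cells divide.

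Stretches that hold many intermediate CpGs are shown for the runs described further on, with those CpGs in capitals and all other bases in lower case. The stretches are 151 bases long, plus strand, read from the mm9 genome, and overlap no annotated exon.
Chromosome 17 stretch beside an 18S ribosomal RNA record, chr17:39981192-39981342: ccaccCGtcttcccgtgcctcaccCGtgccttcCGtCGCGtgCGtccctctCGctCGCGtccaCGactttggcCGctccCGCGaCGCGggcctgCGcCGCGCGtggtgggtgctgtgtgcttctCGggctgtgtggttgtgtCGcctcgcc
Intron of Filip1l, chr16:57391516-57391666: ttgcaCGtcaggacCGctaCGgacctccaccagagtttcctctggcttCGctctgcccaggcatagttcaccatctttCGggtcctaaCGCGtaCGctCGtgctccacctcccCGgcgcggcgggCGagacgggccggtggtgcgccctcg
Intergenic stretch whose nearest start is that of Axin2, chr11:108873222-108873372: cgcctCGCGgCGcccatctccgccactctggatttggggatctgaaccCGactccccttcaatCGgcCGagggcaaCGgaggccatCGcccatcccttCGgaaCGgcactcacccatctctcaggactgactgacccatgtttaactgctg
Upstream of Irs2, chr8:11008695-11008845: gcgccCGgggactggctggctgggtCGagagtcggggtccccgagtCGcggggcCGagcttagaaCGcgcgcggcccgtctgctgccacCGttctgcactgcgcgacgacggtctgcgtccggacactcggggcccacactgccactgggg
Between an alternative start of Commd1 and the start of Zrsr1, chr11:22872919-22873069: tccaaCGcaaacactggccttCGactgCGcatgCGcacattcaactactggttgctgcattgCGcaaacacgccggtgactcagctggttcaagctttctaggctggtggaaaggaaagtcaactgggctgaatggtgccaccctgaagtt
The first stretch held 21 intermediate CpGs among its 23 CpGs, the second 11 among 18, the third 10 among 12, the fourth 6 among 21 and the fifth 5 among 7. The first thus shows a nearly complete block, while in the fourth most CpGs lay outside the class. The 18S record named with the first stretch lies on the same chromosome, and its distance from the stretch was not measured.

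The intermediate level was shared by the check library on average, but single CpGs were scattered around it. Mean methylation at the 11140 intermediate CpGs with 5 or more reads in PBS Rep2 and all 7 treated libraries was 50.1% in PBS Rep1, 50.2% in PBS Rep3 and 53.5% in PBS Rep2. PBS Rep2 had no listed value for 6171 of the 24704 intermediate CpGs. Of the 12360 with 10 or more reads there, 5540 (44.8%, 95% Wilson interval 43.9 to 45.7) were again at 40 to 60%. Counting error alone would leave 61.8% of CpGs in that window if each held the mean level of the choosing libraries. The choice used the same reads, so this expectation leaves out counting error in the choosing libraries and can be too high. How much of the gap to 44.8% comes from that was not tested. In PBS Rep2, 31.9% of intermediate CpGs lay between 60 and 90%, 19.6% between 10 and 40%, 2.65% at 90% or more and 1.06% at 10% or less. The median was 53.8% with quartiles of 41.7% and 65.7%. Of the 619 intermediate CpGs with 50 or more reads in all 3 PBS libraries 67.2% were inside the window. Counting error alone, taken with the same limit, would leave 89.1%. The 619 CpGs had a median of 143 reads in PBS Rep2, against 17 for the 12360, and need not stand for the class. How many of them lie in the very deep runs described below was not counted.

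Intermediate CpGs were lower in every treated library than in PBS Rep2, the check library. Mean levels were 33.2%, 32.4% and 33.6% in F-MTAza Rep1 to Rep3, 32.4%, 33.1% and 31.4% in NP-MTAza Rep1 to Rep3, and 31.4% in Aza Rep3. The F-MTAza and NP-MTAza ranges overlapped. The share of methylation lost from PBS Rep2 was 38.2% ± 1.06 (SD, n = 3) in F-MTAza, 39.6% ± 1.58 (SD, n = 3) in NP-MTAza and 41.4% in the single Aza library, or 39.3% ± 1.59 (SD, n = 7) over all of them. NP-MTAza minus F-MTAza came to -0.743 points, at a level of 32.3% against 33.1%, which was within the spread between libraries (two-sided exact permutation p = 0.2, where 3 against 3 cannot go below 0.1).

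The proportional loss of intermediate CpGs exceeded that of CpGs at 90% or more in both choosing libraries. The 143058 CpGs of that high class fell from 96.3% in PBS Rep2 to between 62.4% and 66.8% in treated libraries, a loss of 32.8% ± 1.82 (SD, n = 7). Set against it in the same library, the share lost by intermediate CpGs was larger by 7.18, 7.52 and 6.67 points in F-MTAza, by 6.15, 5.53 and 6.41 points in NP-MTAza and by 6.15 points in Aza Rep3. The difference averaged 6.52 ± 0.673 points (SD, n = 7), was above 0 in 7 of 7 libraries and had an exact two-sided sign-flip permutation p of 0.0156, the smallest that 7 libraries allow. All 7 differences share the single check library as their start, so the test covers the spread of the treated libraries and not that of PBS. As a ratio, intermediate CpGs held 0.556 of the high class level in PBS Rep2 and 0.502 ± 0.00496 (SD, n = 7) in treated libraries (exact permutation p = 0.125, the smallest for 7 against 1). Over the 5 treated libraries with 1 set of barcodes, as PBS had, the difference was 6.74 points (exact p = 0.0625, the smallest for 5).

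**Figure D1:**
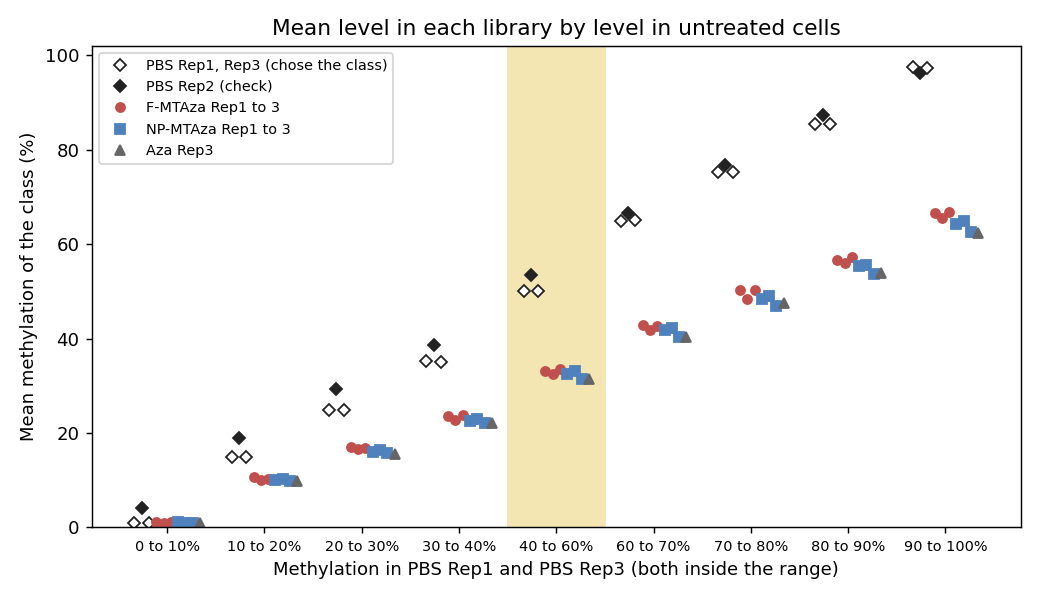
Mean methylation (%) in each library for CpGs grouped by their level in PBS Rep1 and PBS Rep3, with open diamonds for the PBS libraries that chose each class, filled diamonds for PBS Rep2 and 1 symbol per treated library. In the shaded class at 40 to 60% the treated libraries sit between 31.4% and 33.6%, below PBS Rep2 at 53.5%.

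The size of this difference depended on which PBS library was the start. PBS Rep2 stood above the other PBS libraries at low and middle levels. As the check library at CpGs at 10% or less in the other PBS libraries it read 4.12%, while PBS Rep3 and PBS Rep1 read 1.61% and 1.52% in the same role. Treated libraries read 0.927 to 1.11% at the first of these sets. When the class was chosen in PBS Rep1 and PBS Rep2 and followed from PBS Rep3, the intermediate class lost 36.8% ± 1.67 (SD, n = 7) and the high class 32.4% ± 1.80. With PBS Rep1 as the start these losses were 36.8% ± 1.68 and 32.4% ± 1.82. The difference was then 4.38 and 4.39 points in place of 6.52, again above 0 in every library (exact sign-flip permutation p = 0.0156 for n = 7 in both). The part of PBS Rep2's own deviation in the larger value was not tested.

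Across starting levels from 30% upward the loss changed by a few points, and the largest step between adjoining classes came above 90%. From PBS Rep3, CpGs at 30 to 40% lost 38.1% of their methylation, those at 60 to 70% lost 35.8%, those at 70 to 80% lost 35.9% and those at 80 to 90% lost 35.6%, beside the 36.8% of the intermediate class. From PBS Rep2 the corresponding losses were 41.0%, 37.3%, 36.6% and 36.5%, beside 39.3%. Against CpGs at 80 to 90% the intermediate class lost more by 2.82 ± 0.458 points from PBS Rep2, 1.14 ± 0.325 from PBS Rep3 and 0.901 ± 0.267 from PBS Rep1, in 7 of 7 libraries each time (exact sign-flip permutation p = 0.0156, adjusted 0.0221 over 24 such differences). Against CpGs at 60 to 70% the difference was 1.98 ± 0.405 points from PBS Rep2 and 1.01 ± 0.568 from PBS Rep3, in 7 of 7 libraries each (exact permutation p = 0.0156, adjusted 0.0221). From PBS Rep1 it was 0.341 ± 0.622 points, within the spread between libraries (5 of 7 above 0, exact permutation p = 0.25, adjusted 0.25). Beside CpGs at 30 to 40% the intermediate class lost less, by a difference of -1.76 points from PBS Rep2 and from PBS Rep1. In both, 0 of 7 libraries lay above 0 (exact permutation p = 0.0156, adjusted 0.0221). The value from PBS Rep3 was -1.27 points (1 of 7 above 0, exact permutation p = 0.03125, adjusted 0.0357). Beside CpGs at 20 to 30% it was -5.02, -1.90 and -2.14 points from PBS Rep2, PBS Rep3 and PBS Rep1 (0 of 7 above 0 each). In all 3 settings the CpGs at 90% or more had the smallest share lost of the classes from 10% upward. Just inside the lower edge of the choice, at 40 to 45%, CpGs went from 45.4% in PBS Rep2 to 27.9% in treated libraries, and just outside it, at 35 to 40%, from 40.6% to 24.2%. At the upper edge, CpGs at 55 to 60% went from 58.8% to 37.2% and those at 60 to 65% from 64.4% to 40.3%.

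**Figure D2:**
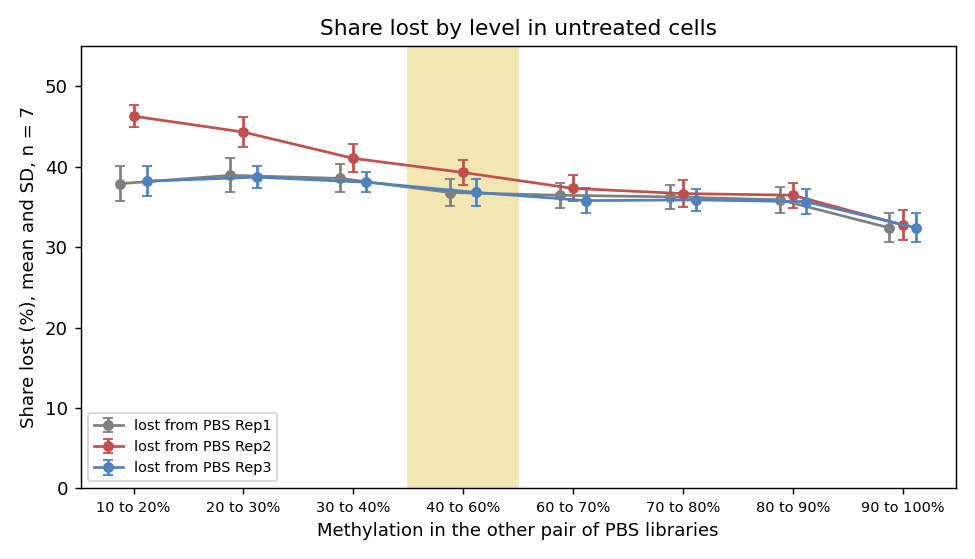
Share of methylation lost (%) in treated libraries by starting level, as mean and SD over 7 treated libraries, with each PBS library in turn as the start and the other PBS libraries choosing the classes. In the shaded class at 40 to 60% the loss is 39.3% from PBS Rep2 and 36.8% from either other library, and it drops to between 32.4% and 32.8% at 90 to 100%.

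The distribution over single intermediate CpGs kept 1 broad peak and moved down. At 10 or more reads, the median level was 30 to 31.9% across the 7 treated libraries, against 53.8% in PBS Rep2. Between 55.5% and 65.4% of intermediate CpGs lay at 10 to 40% in a treated library and 23.3 to 28.1% were still at 40 to 60%. The share at 10% or less was 7.61 to 10.1%, and the share at 90% or more was at most 0.280%. By comparison, the high class at its treated median of 62.5 to 68.2% had 0.159 to 0.271% of its CpGs at 10% or less. With few reads per CpG these distributions include counting error.

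**Figure D3:**
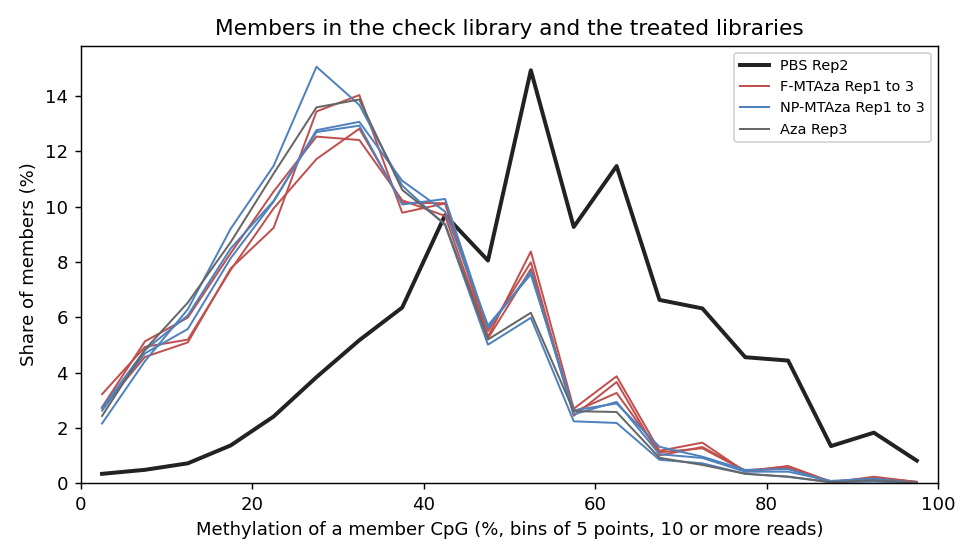
Distribution of methylation over single intermediate CpGs with 10 or more reads, as the share of CpGs (%) in bins of 5 points, for PBS Rep2 and the 7 treated libraries. PBS Rep2 has a median of 53.8%, and the treated curves, which nearly coincide, have medians of 30 to 31.9%.

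Tested 1 CpG at a time against PBS Rep2, intermediate CpGs made up a small part of the calls. The call was a likelihood ratio test on pooled reads with a Benjamini-Hochberg q under 0.01 over all autosomal CpGs tested and a drop of at least 35 points. A fixed drop of 35 points is a larger share of a level of 53.5% than of 96.3%. The call rates therefore cannot compare the proportional losses of the intermediate and high classes. In F-MTAza 1165 of 11743 intermediate CpGs were called lower (9.92%), beside 16.2% of all 572001 CpGs tested and 24.3% of the high class. In NP-MTAza the numbers were 1864 of 16301 (11.4%), beside 18.3% of all 957215 CpGs and 29.3% of the high class. With no minimum drop, 14.9% of intermediate CpGs were called lower in F-MTAza beside 23.6% of all, and 16.6% in NP-MTAza beside 24.8% of all. Calls followed the check library, since in NP-MTAza 48.8% of those at 80% or more in PBS Rep2 were called lower, and 2.43% of those still at 40 to 60% there. The minimum drop by itself makes a call harder to reach from a lower start. Calls upward by 35 points or more were made for 6 intermediate CpGs in F-MTAza (0.0511%, beside 0.0142% of all CpGs tested). In NP-MTAza there were 7 (0.0429%, beside 0.0128% of all). Without the minimum they came to 18 (0.153%, beside 0.0198% of all) and 14 (0.0859%, beside 0.0161% of all). The intermediate shares were thus the larger ones, on few calls, and the difference was not tested. A version of the test that corrects for extra spread between libraries, with 2 residual degrees of freedom, called 0 CpGs lower by 35 points in either comparison, intermediate or not (0% of all tested). With so few degrees of freedom and so few reads per CpG it could hardly reach that q, so its 0 calls decide nothing. At an unadjusted p under 0.05 it passed 349 intermediate CpGs for F-MTAza (2.97%, beside 3.93% of all) and 440 for NP-MTAza (2.70%, beside 3.81% of all). limma on the arcsine square root scale, at an adjusted p under 0.01 and a drop of at least 35 points, called 25 intermediate CpGs for F-MTAza (0.213%, beside 0.448% of all) and 32 for NP-MTAza (0.196%, beside 0.499% of all). The median difference from PBS Rep2 was -20.8 points in F-MTAza and -21.6 points in NP-MTAza, against -23.7 and -26.1 points over all CpGs tested. Below PBS Rep2 lay 85.3% and 86.5% of intermediate CpGs, beside 81.3% and 81.4% of all and 98.2% and 98.8% of the high class.

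The distance between the classes was wider in denser DNA. Where 1 to 3 CpGs lay within 100 bp on either side, itself included, intermediate CpGs lost 42.2% ± 1.40 and the high class 37.1% ± 1.57 (SD, n = 7). At 4 to 7 CpGs the losses were 40.4% and 34.5%, and at 8 to 15 they were 37.3% and 29.6%. At 16 or more CpGs intermediate CpGs lost 34.3% ± 2.60 and the high class 19.7% ± 2.03. The difference grew from 5.09 ± 0.817 points in the sparsest DNA to 14.6 ± 1.38 points in the densest, and was above 0 in 7 of 7 libraries in each of the 4 density classes (exact sign-flip permutation p = 0.0156 in each, n = 7). In the densest DNA, 1613 intermediate CpGs went from 55.3% to 36.3% on average, while 9503 high CpGs went from 97.0% to 77.9%. Whether the growth of the difference with density itself exceeds chance was not tested.

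**Figure D4:**
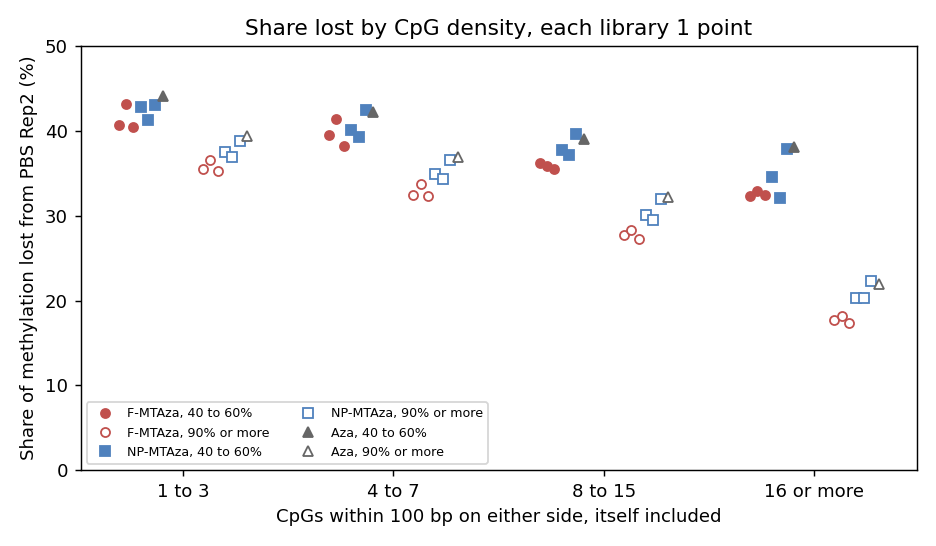
Share of methylation lost from PBS Rep2 (%) against the number of CpGs within 100 bp on either side, 1 point per treated library, filled for intermediate CpGs (40 to 60%) and open for CpGs at 90% or more. The filled points lie at 32.1 to 38.1% in the densest class, where the open points lie at 17.4 to 22.3%.

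The location of a CpG moved the loss by a few points. Intermediate CpGs lost 37.1% ± 2.06 in promoters, 36.8% ± 2.40 in exons, 40.6% ± 1.89 in introns and 40.02% ± 1.22 between genes (SD, n = 7). The high class lost 29.4%, 30.4%, 34.6% and 33.3% in the same places. The difference lay between 5.91 and 7.71 points and was above 0 in 7 of 7 libraries in each place (exact sign-flip permutation p = 0.0156, n = 7).

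The largest group of intermediate CpGs lay between genes. Of them, 40.7% were intergenic, 27.8% intronic, 7.68% exonic and 23.8% in promoters, taken as 2000 bp before to 500 bp after a start. For all 942874 CpGs the shares were 30.3%, 28.3%, 10.7% and 30.7%, and for the high class 31.5%, 36.6%, 17.1% and 14.8%. Put the other way, 3.52% of intergenic CpGs were intermediate, against 2.57% of intronic, 2.03% of promoter and 1.88% of exonic ones. They were 25.7% over 50000 bp from any annotated start, against 18.1% of all CpGs. Sparse DNA held more of them, with 3.34% intermediate at 1 to 3 CpGs per window and 2.03% at 16 or more. Across the 19 autosomes the share ran from 2.22% on chromosome 16 to 2.88% on chromosome 5. CpGs inside CCGG, the cutting site, made up 11.4% of them, 10.3% of all CpGs and 7.74% of the high class. These shares describe CpGs that often share fragments and carry no test.

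Neighbours shared the level in part. Among CpGs within 100 bp of an intermediate CpG that had 10 or more reads in PBS Rep2, 22.0% were at 40 to 60% there, against 3.69% of neighbours of high CpGs, 1.15% of neighbours of CpGs at 10% or less and 6.47% of neighbours of any CpG. At 1 to 10 bp the share was 28.9%, at 26 to 50 bp it was 20.8%, between 200 and 500 bp 18.5% and between 1000 and 5000 bp still 17.4%. Neighbours that were not themselves chosen as intermediate followed the same order, from 23.7% at 1 to 10 bp to 14.2% between 1000 and 5000 bp. The mean level of neighbours lay at 58.8 to 63.2% at every distance, so the surroundings of an intermediate CpG were on average more methylated than the CpG itself. Neighbours at 1 to 10 bp went from 59.6% in PBS Rep2 to 39.1% in treated libraries, a loss of 34.4%. CpGs this close are usually read on the same fragments and are not independent. The shares count pairs of CpGs, so a dense run enters many times. Members made up 7.28% of neighbours between 500 and 1000 bp and 9.27% between 1000 and 5000 bp. The 2 runs on chromosome 17 described below hold 161 members, and their part in the shares at long distance was not tested.

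**Figure D5:**
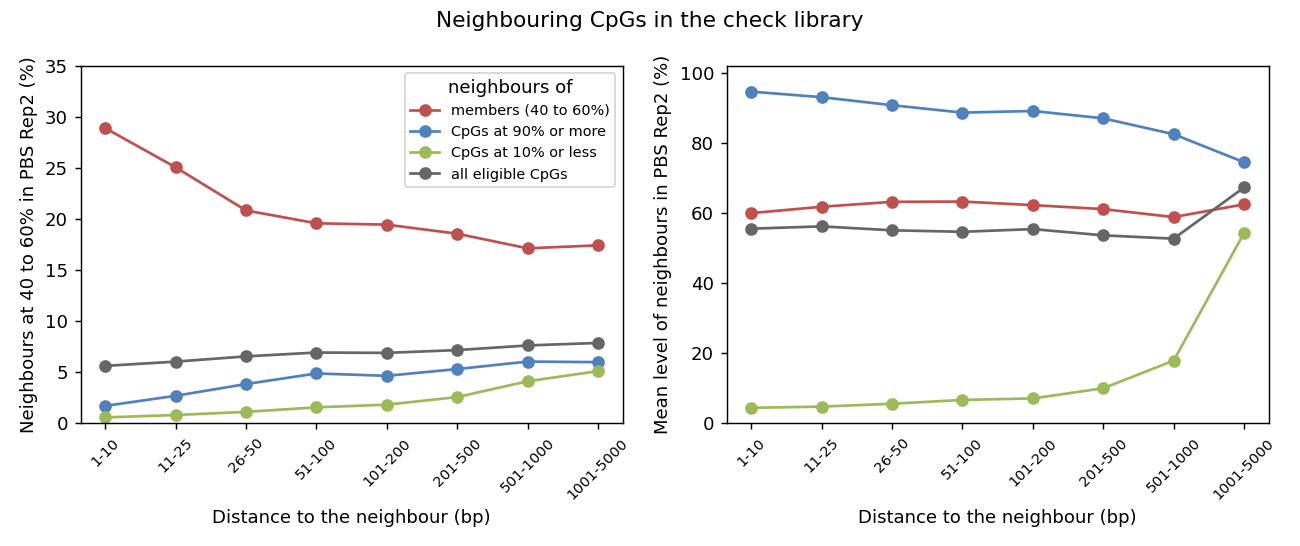
Share of neighbouring CpGs at 40 to 60% in PBS Rep2 (%, left) and mean level of neighbours in PBS Rep2 (%, right) against distance in bp, for neighbours of intermediate CpGs, of CpGs at 90% or more, of CpGs at 10% or less and of all eligible CpGs. For intermediate CpGs the left curve falls from 28.9% at 1 to 10 bp to 17.4% between 1000 and 5000 bp and stays above the other curves.

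The surroundings of intermediate CpGs were mixed. Grouped by the mean level of other eligible CpGs within 100 bp in the choosing libraries, 21.4% of intermediate CpGs sat among neighbours at 40 to 60%, 22.3% among neighbours at 60 to 80% and 23.7% among neighbours at 80% or more. A further 11.4% sat among neighbours at 20 to 40%, 5.27% among neighbours under 20%, and 15.9% had no other eligible CpG within 100 bp. The loss differed by a few points with the surroundings, at 39.0% ± 1.98 among neighbours at 40 to 60%, 37.5% ± 1.48 among those at 60 to 80%, 39.5% ± 1.60 among those at 80% or more and 42.0% ± 1.26 among those under 20% (SD, n = 7). The library ranges of the lowest and highest of these, 35.9 to 39.7% and 40.4 to 44.1%, did not overlap, and the difference was not tested. In PBS Rep2 46.5% of intermediate CpGs with neighbours at 40 to 60% were again in the window, and 44.3% of those with neighbours at 80% or more. Of high CpGs, 74.7% had neighbours at 80% or more.

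Joined within 500 bp, the intermediate CpGs formed 18931 runs, of which 15682 held a single CpG and 286 held 5 or more. CpGs alone in their run lost 40.4% ± 1.32, those in runs of 2 to 4 lost 38.2% ± 1.88 and those in runs of 5 or more lost 35.6% ± 2.87 (SD, n = 7). Promoters held 15.02%, 34.3% and 54.2% of these CpGs, and the median number of CpGs per window was 5, 8 and 19. Location and density thus moved together with run size, and their part in the loss was not tested. Of the 94 runs with 5 or more members in the shared set, 70 had all 7 treated libraries below PBS Rep2, and the median run lost 34.9% (quartiles 26.8% and 43.2%).

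The run with most members, 126 of 344 eligible CpGs at chr17:39979959-39984205, overlapped no annotated gene. The next, 35 of 70 at chr17:39984887-39985633, overlapped the non-coding gene AY036118. RefSeq (GRCm38) lists AY036118 on chromosome 17, as it does Rn18s-rs5, a pseudogene related to the 18S RNA of the small ribosomal subunit. Ribosomal RNA genes exist in many copies, and the median read number of these CpGs in PBS Rep3 was 1186 and 1980, against 25 for all intermediate CpGs. Whether the levels there pool several copies was not tested. The first run read 46.7%, 55.7% and 46.2% in PBS Rep1 to Rep3, 34.3%, 34.7% and 36.7% in F-MTAza, 35.8%, 34.99% and 29.7% in NP-MTAza and 34.2% in Aza Rep3. All 7 treated values were below PBS Rep2, a loss of 38.3% from it. The second run went from 45.5%, 43.1% and 46.9% in PBS to between 30.03% and 35.9% in treated libraries, a loss of 21.9%. The Filip1l intron (chr16:57391389-57391746) and the intergenic run at chr11:108873029-108873398 also had high read numbers, with 1083 and 782 median reads in PBS Rep3. Their levels went from 54.6% and 54.95% in PBS Rep2 to means of 34.8% and 35.3% over the treated libraries. The opening bases of the Filip1l stretch are not unique to it. They recur in a run at the Sspn promoter on chromosome 6. On the other strand they recur in the run nearest Myom2 on chromosome 8. Whether the levels of the Filip1l and chromosome 11 runs pool several copies was not tested. In all, 239 intermediate CpGs (0.967%) had 500 or more reads in a choosing library, against 0.183% of all eligible CpGs. They carried 34.1% of the reads of the class and lost 38.8% ± 3.40 (SD, n = 7).

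Among runs at promoters, that of Irs2, an adaptor of the insulin receptor, held 23 members at chr8:11007600-11008785. Its 13 members in the shared set read 47.5%, 57.4% and 48.8% in PBS Rep1 to Rep3, 48.0%, 25.2% and 31.1% in F-MTAza, 24.2%, 33.0% and 40.5% in NP-MTAza and 27.6% in Aza Rep3. The treated values spread widely, and all 7 lay below PBS Rep2. At 2610005L07Rik (chr8:20019873-20020526, 32 members) PBS Rep2 read 57.2% and the treated libraries 32.2 to 55.7%, all below it. Hjurp, the chaperone that loads the centromeric histone, shares its promoter with Trpm8, and its run (chr1:90173906-90174169, 19 members) read 53.4%, 81.1% and 48.8% in PBS, far from the middle in the check library. Acot1, an acyl-CoA thioesterase (85.9% in PBS Rep2), and Dfna5, the gasdermin E gene (79.3%), did the same. The run of Mgat5b, a glycosyltransferase, with 22 members, had no CpG in the shared set. Neither had the promoter of Cntln, the gene of the centriolar protein centlein, where 14 of 15 eligible CpGs were intermediate. At the promoter of Vax1, a homeobox gene, 12 of 13 members were followed and went from 56.3% in PBS Rep2 to 25.4 to 39.7%. Of the 94 runs, 62 were at 40 to 60% in PBS Rep2, 12 were above 70% and 0 below 30%.

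The runs with the largest losses had high levels in PBS Rep2 and those with the smallest had low ones. The largest losses were at Zfp423 (73.5%), Kank4 (63.5%), near Zfp167 (63.1%), at Tcfap2b (62.3%) and at Kank1 (55.6%), where PBS Rep2 read 65.1 to 92.4%. The smallest were at G630090E17Rik (-11.0%, higher than PBS Rep2 in 3 of 7 libraries), Fzd9 (4.10%), Prdm12 (5.10%), an intergenic run with Zfp518a as nearest start (7.83%) and Ostm1 (9.56%), where PBS Rep2 read 31.2 to 42.3%. These runs were picked by the values they are described with.

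Imprinted genes, where 1 parental allele is methylated, held few of the intermediate CpGs. Promoters of the imprinted list contained 38 intermediate CpGs among 968 eligible ones (3.93%), against 2.03% over all promoters. The list had 3 or more members in the promoter or body of Commd1 and Zrsr1 (the same 12 CpGs, Zrsr1 being an imprinted gene inside Commd1), Gnas (9), Sfmbt2 (9), Phlda2 (7), Trappc9 (4), Igf2 (3) and Rasgrf1 (3). The 8 shared-set members of Zrsr1 read 54.8%, 59.9% and 53.4% in PBS Rep1 to Rep3, 45.7%, 25.3% and 45.8% in F-MTAza, 33.3%, 20.7% and 24.3% in NP-MTAza and 41.0% in Aza Rep3. All 7 treated values lay below PBS Rep2, a loss of 43.7%. At Gnas, the gene of the stimulatory G protein subunit, 4 members read 52.3%, 72.4% and 49.1% in PBS Rep1 to Rep3. In treated libraries they read 29.5 to 38.3%. At Sfmbt2, a polycomb group gene, 4 members read 52.7%, 61.3% and 54.6% in PBS Rep1 to Rep3 and 35.7 to 52.8% in treated libraries. At Trappc9, 2 members read 58.9% in PBS Rep2 and 16.25 to 79.2% in treated libraries, of which 6 of 7 lay below it.

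In the other gene lists the share of promoter CpGs that were intermediate was 5.45% for proximal tubule genes (11 CpGs), 3.58% for kidney development (43), 2.45% for Wnt and Hippo signalling (21), 2.21% for other kidney cell types (3) and 2.04% for Hox genes (25). It was 1.48% for cAMP, calcium and AMPK signalling (12), 0.929% for the DNA methylation machinery (5), 0.748% for polycystic kidney disease genes (4), 0.741% for germline genes (2) and 0.207% for housekeeping genes (1). With so few CpGs per list these shares are descriptions beside the 2.03% of all promoters. By gene, 20.3% of the 16320 genes with an eligible promoter CpG had an intermediate one there. Counting promoter and body, Cacna1c, an L-type calcium channel subunit, held 19 members among 390 eligible CpGs, and 7 of them went from 54.2% in PBS Rep2 to 31.2 to 42.8%. Tet1, which oxidizes methylated cytosine, held 12 among 173, and 10 of them went from 45.7% to 27.8 to 41.4%. Sfrp1, a secreted Wnt antagonist, held 10 among 125, and 4 of them went from 56.7% to 36.2 to 52.2%. Hnf4a, a transcription factor of proximal tubule cells, held 3 among 43, which went from 54.5% to 20.1 to 40.7%. Pkd1l2, a relative of Pkd1, held 4 among 57, which went from 61.4% to 22.9 to 46.0%. Lef1, a transcription factor of the Wnt pathway, held 6 among 246, and 4 of them went from 47.7% to 19.9 to 39.2%. Fgfr2, which leads the kidney development list, held 41 among 1359 over an annotated span that also covers Htra1. Of its members 19 were followed and went from 52.7% to 29.4 to 34.3%. Each of these genes had all 7 treated libraries below PBS Rep2. Among leading genes not described here, Uhrf2 and Hoxa3 had 6 of 7 below it, and Eef2 and Acta2 had 5 of 7. The remaining ones with followed CpGs had 7 of 7. Bmp7, a growth factor of the developing kidney, held 9 among 161, and the 2 followed read 30.1% in PBS Rep2 and 27.2 to 51.3% in treated libraries, of which 2 of 7 lay below it. The files analysed here hold methylation only, so the labelled cell type was not checked by its transcripts here. Promoter methylation in PBS Rep2 had a median of 74.7% over 16 proximal tubule markers and 73.2% over 14 markers of other kidney cells.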

How the data were processed

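Methylation was measured in 12 libraries, 3 per group. According to the deposited tables and the paper's methods, the authors used Trim Galore 0.4.4 for trimming and Bismark 0.20.1 with Bowtie2 for alignment (mm9), merged strands and kept CpGs with 5 or more reads. The deposited values are the methylated and total read numbers and the percent methylated, and levels were computed from the read numbers. Listed reads per library ranged from 25336747 to 65817118, with a median of 7 to 9 per CpG. Reads carried no molecular identifiers, so intervals cover counting error only. Positions that were no CpG of the mm9 genome were dropped (3 of those passing the rule). Class levels are unweighted means over CpGs. GENCODE vM1 gave genes. Runs joined intermediate CpGs within 500 bp, and the text names the 10 with most members. Among those with 5 or more in the shared set it names the 5 with the largest and smallest loss. Also named are the 10 promoters with most members (some only through a shared run) and imprinted genes with 3 or more. Of the gene lists, only some leading genes are named. Work used Python 3.11.15, scipy 1.17.1 and limma 3.58.1 in R 4.3.3, and was tested on simulated data. The members, lists and tests were chosen with earlier results of these data known. Alternatives changed depth, window, weighting, choosing libraries, high class, barcode sets, libraries and tests. Repeats were not analysed here.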

Additional observations from a re-analysis of the deposited data

Results flagged for a closer look

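Aza Rep1 and Aza Rep2, left out of every comparison, stood apart at CpGs that were at 10% or less in both choosing PBS libraries. Their mean levels there were 40.8% and 44.4%, above the 1.05% of Aza Rep3, each over the CpGs of that class the library lists. At the 76496 CpGs of the class that PBS Rep2 and the 7 followed libraries share, PBS Rep2 read 4.12% and Aza Rep3 0.976%. Both libraries combine 2 barcode sets, as do NP-MTAza Rep1 and NP-MTAza Rep2, whose levels at these shared CpGs were 1.11% and 1.03%.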

How the results depend on the processing

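The larger proportional loss of intermediate CpGs kept its direction under all 26 alternatives, at 2.62 to 14.6 points. It lost its call only with 1 set of barcodes (6.74 points, exact permutation p = 0.0625, the smallest that 5 libraries allow). Leaving out each treated library in turn gave 6.39 to 6.69 points. The alternatives with a high class of 70 to 80% or 80 to 90% started from PBS Rep2 only. From PBS Rep3 and PBS Rep1 the difference was smaller than that range. Against CpGs at 70 to 80% it was 0.927 and 0.543 points (7 and 6 of 7 libraries above 0). Against CpGs at 80 to 90% it was 1.14 and 0.901 points (7 of 7 each). The loss of the intermediate class was 37.6% with CpGs weighted by reads, and 36.79% and 36.78% when PBS Rep3 or PBS Rep1 was the start. The share again at 40 to 60% in the check library was 40.9% at 5 reads, 52.5% at 20 reads, 49.5% with 20 reads in the choosing libraries, and 47.1% and 46.6% with PBS Rep3 or PBS Rep1 as the check. With 50 and 100 reads in all 3 PBS libraries, settings added after seeing the data, it was 67.2% and 68.6%. The promoter share was 21.9% at 20 reads and 18.3% with promoters from 500 bp before the start, and neighbours with 20 or more reads were at 40 to 60% in 25.4%.

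Intermediate CpGs called lower in F-MTAza numbered 1754 with no minimum drop, 25 with limma and 0 with the correction for extra spread, whose shares over all CpGs stand in the report. The correction could hardly reach q under 0.01 with 2 residual degrees of freedom, so its 0 calls decide nothing. With 10 reads in each library they were 429 of 3579 (12.0%, beside 24.0% of all), fewer because fewer CpGs were tested. With all 3 PBS libraries as control, where PBS Rep1 and PBS Rep3 hold the level that chose these CpGs, they were 717 of 11743 (6.11%, beside 22.1% of all). In NP-MTAza limma called 32 and the correction 0. With 10 reads 1203 of 7950 were called (15.1%, beside 28.4% of all), and with all 3 PBS libraries 951 of 16301 (5.83%, beside 26.1% of all). Leaving out a treated library gave 906 to 1146 calls among 12211 to 13830 intermediate CpGs tested in F-MTAza. In NP-MTAza it gave 1541 to 1750 among 16500 to 17355. The share over all CpGs was not taken for these settings, so the counts describe the test only. With the replicate number as a replicate block, NP-MTAza minus F-MTAza was -0.743 points as before (exact p = 0.5). Same-numbered libraries did not deviate together (correlations of 0.000332, -0.00551 and -0.000218 across CpGs), so the numbers were not used as pairs. The ratio to the high class and the difference between F-MTAza and NP-MTAza kept their sign, and their tests could not pass 0.05 at these library numbers. The alternative that leaves out repeats was not run, because the genome used here marks none. Starting from PBS Rep1 or PBS Rep3 at every level was added after seeing the data. Depth limits single CpGs, and 1 check library limits every loss.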
